A study of Mus musculus with 57 samples.

Results

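The 9 genes described here are those of a list of core and formative pluripotency regulators: Pou5f1, Utf1, Sall4, Lin28a, Lin28b, Fgf5, Otx2, Pou3f1 and Zic2. They were listed by name, with no threshold on measured values, and are 9 of the 55450 genes of the count table. The study sorted mouse embryonic stem cells (ESCs) during retinoic acid (RA) differentiation by 2 reporters, Sox1 and FoxA2, and sequenced RNA of 57 libraries, 3 replicates of each of 19 conditions. At day 0 (D0) only Sox1-FoxA2- cells were sorted, from ESCs kept in serum with LIF. At D2, D4 and D6 of 1 uM RA in serum-free N2B27 medium, 4 populations were sorted: Sox1-FoxA2-, Sox1+FoxA2-, Sox1-FoxA2+ and Sox1+FoxA2+. Progeny libraries came from the 3 marker-positive populations sorted at D2, replated in RA medium with serum and collected at D4 and D6, so replating and the medium cannot be told apart. All cells are of the Sox1-EGFP/FoxA2mCherry line, a single clone in which EGFP replaces 1 Sox1 allele and mCherry is fused to the end of FoxA2. The study calls the 3 libraries of a condition biological replicates, and the labels number them without naming separate cultures.

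Pluripotent cells pass from a naive state, held by factors such as NANOG, ESRRB and KLF4, through a formative state in which they become competent to form the germ layers. POU5F1 (OCT4) is needed in both states, whereas FGF5, OTX2, POU3F1 (OCT6) and ZIC2 belong to the formative and primed epiblast and, except for FGF5, return later in the developing nervous system. LIN28A and LIN28B are RNA-binding proteins that block the maturation of let-7 microRNAs, SALL4 is a zinc finger protein that works with POU5F1, and UTF1 is a chromatin-bound protein of undifferentiated cells.

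Values are normalized counts, the deposited counts divided by DESeq2 size factors, and are given in the order of replicates 1, 2 and 3. Fold changes and their standard errors (SE) are edgeR's on the log2 scale, with p-values adjusted over all genes tested (Benjamini-Hochberg) and called under 0.05, from 3 libraries a condition. Library totals ran from 10170632 to 81845651 counts, genes with a count from 14458 to 27832, and the mitochondrial share from 3.21% to 18.5%. Reads that fell on more than 1 gene body were dropped in the counts: each of the 1351 protein-coding genes with no base outside other genes had 0 counts, among them Sox1, so that 1 of the sort's markers could not be checked. Of the 9 genes, Pou5f1 is the one most open to this loss, with 69.0% of its body and 68.8% of its exon bases free of other genes, whereas Otx2 has 68.3% of its body but 96.0% of its exon bases free. Pou5f1 also has near-identical processed copies that could take some of its reads. Foxa2 was at 5, 0 and 0 in D0. At D2 it was at 3241, 3057 and 1646 in Sox1-FoxA2+ cells and at 1582, 1956 and 1067 in Sox1+FoxA2+ cells, above both FoxA2- populations (0 to 324). At D6 the Sox1+FoxA2+ library of replicate 1 held 0 counts of Foxa2 against 728 and 76.6 in the others. The 0 goes against its label, and it is called the library labelled Sox1+FoxA2+ below. The 76.6 also lies within the D2 range of the FoxA2- populations. The summed endoderm markers (listed below) go with the label: they ran from 43828 to 292990 over the 3 D6 Sox1+FoxA2+ libraries. In both FoxA2- populations of D6 they ran from 4429 to 6632.

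Of the 9 genes, 7 had their highest mean in D0, and without D0 replicate 2, a library described below, 5 did so, Fgf5 and Pou3f1 no longer among them. The share of all genes with their highest mean in D0 was not counted. For Pou5f1, Utf1 and Sall4 each of the 3 D0 libraries exceeded each library of the other 18 conditions. Lin28a peaked instead in D2 Sox1+FoxA2+ cells, at a mean of 19951 normalized counts, and Lin28b in D4 Sox1+FoxA2- cells, at 5408. Placed in order of their means, the 19 conditions give 18 pairs of neighbours a gene. For Pou5f1, Utf1, Sall4, Lin28a and Zic2 the libraries of 1 such pair did not overlap, and for Lin28b, Fgf5, Otx2 and Pou3f1 those of 0 pairs did so, so that the order is resolved in coarse steps and not condition by condition. Per kilobase of exon that could be counted, the D0 level was highest for Pou5f1 (3561), Sall4 (3465), Lin28a (3158) and Utf1 (3115), and lower for Pou3f1 (649), Zic2 (602), Otx2 (569), Fgf5 (563) and Lin28b (188). The levels of these 5 rest on D0 replicate 2: without it they were 108 for Pou3f1, 356 for Zic2, 150.4 for Otx2, 4.48 for Fgf5 and 124 for Lin28b. The counts appear to cover whole gene bodies, which ran from 1324 bases (Utf1) to 109776 (Lin28b). Reads in introns may thus add to levels divided by exon bases alone, so the order between genes is approximate.

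**Figure D1:**
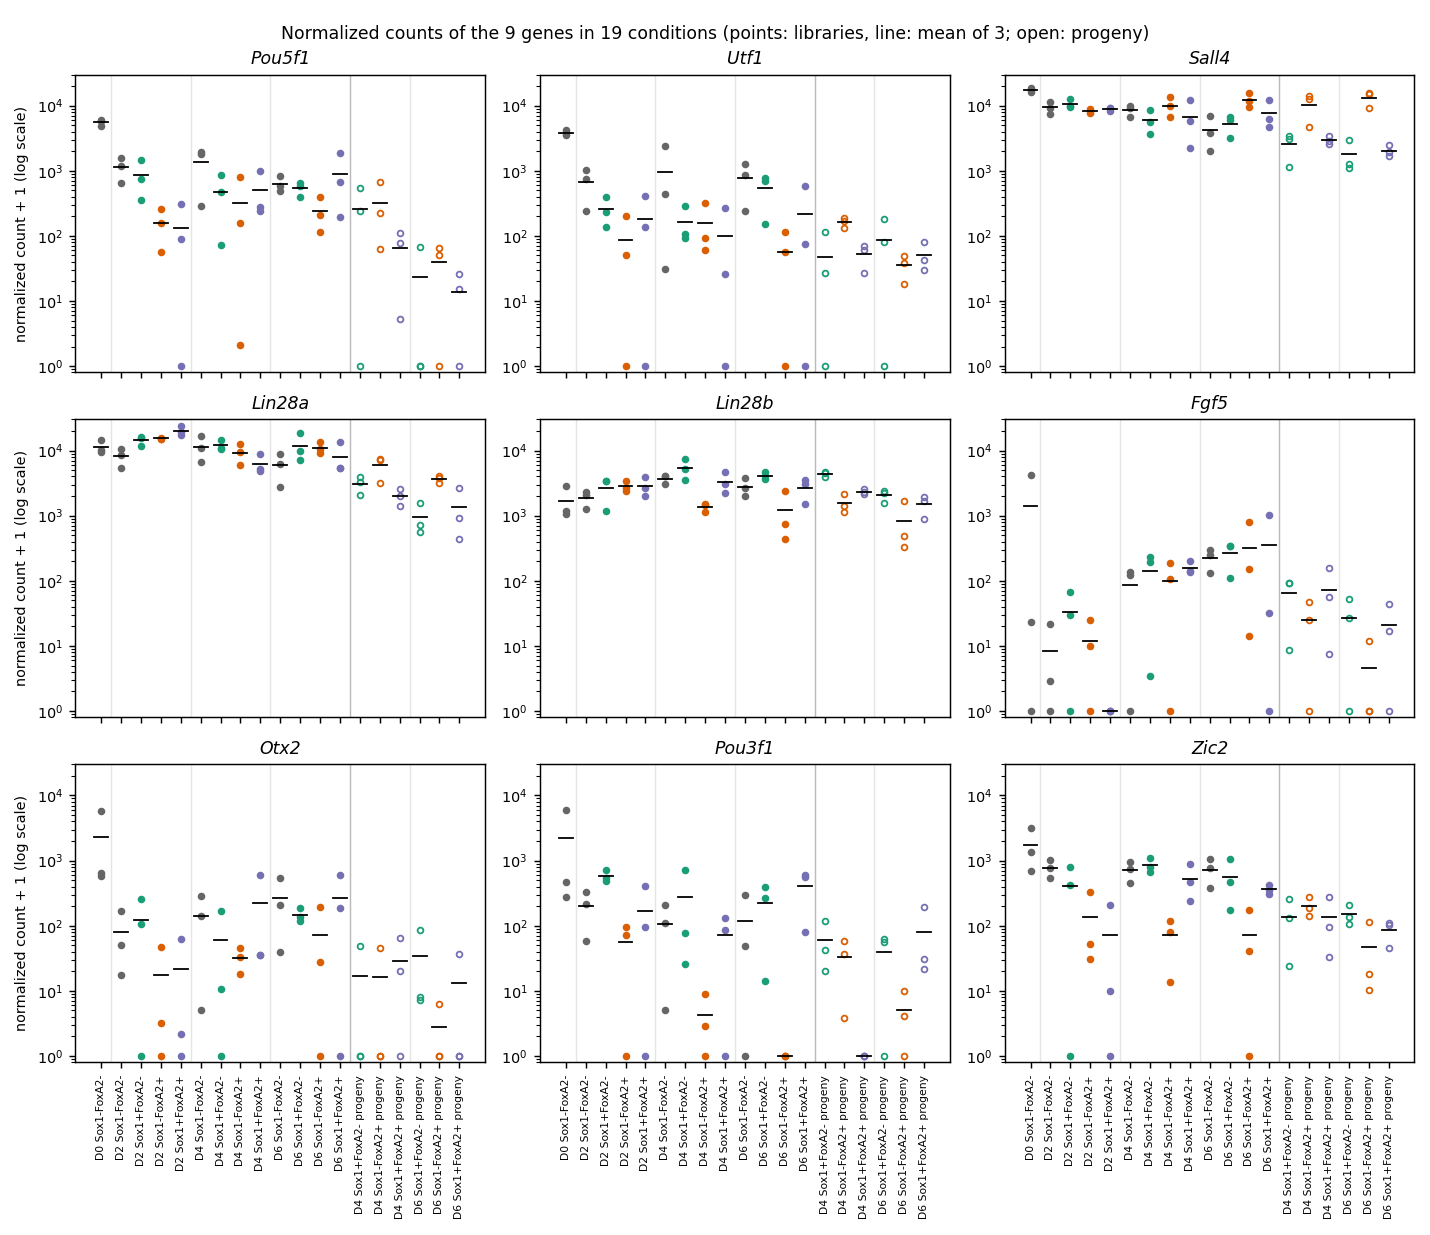
Normalized counts plus 1 (vertical, log scale) of each of the 9 genes (panels) in the 19 conditions (horizontal: D0, the 4 sorted populations at D2, D4 and D6, then progeny). Points are libraries, open points are progeny, lines are means of 3, and grey, green, orange and purple mark Sox1-FoxA2-, Sox1+FoxA2-, Sox1-FoxA2+ and Sox1+FoxA2+. Pou5f1 and Utf1 step down after D0, Sall4 stays within the range from 1097 to 18657, with its 3 highest libraries at D0 (grey) and its highest values at D6 in orange, and Pou3f1 reaches 0 in all 3 libraries of D6 Sox1-FoxA2+ cells.

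The D0 libraries were not alike in the formative genes. Fgf5, a growth factor taken as the marker of the formative epiblast, was at 22.4, 4201 and 0. Otx2, a homeodomain factor that directs the exit from the naive state, was at 645, 5697 and 575, and Pou3f1, a POU factor of the same transition, at 473, 6037 and 277. Replicate 2 was the high one for these 3 genes, and also for Zic2 (1364, 3152 and 686), a zinc finger factor, and for Lin28b (1177, 2871 and 1077). Pou5f1 (5923, 4882 and 5724), Utf1 (3753, 4227 and 3485) and Sall4 (17372, 18657 and 16047) were close in the 3 libraries. Genes outside the list moved in the same library. Dnmt3b, a DNA methyltransferase induced at the exit from the naive state, was at 7952, 76866 and 5705, and Sall2 at 387, 5641 and 420. The naive factors were lower in replicate 2, with Esrrb at 14274, 2947 and 12328, Klf4 at 10972, 1622 and 5767, and Zfp42 at 26002, 8468 and 24209. The 5 markers of undifferentiated ESCs (Nanog, Zfp42, Esrrb, Klf4, Tfcp2l1) summed to 20406 in 1 D0 library and up to 71746 in another. D0 replicate 2 had 50662302 counts against 27564704 (replicate 1) and 20391512 (replicate 3), and its mitochondrial share of 3.21% was the lowest of the 57 libraries, against 6.80% and 18.1%. The part of these in its levels was not tested. Across 12175 genes its differences from the other D0 libraries were near the difference between those 2: the median absolute log2 difference was 0.696 between replicates 1 and 2, 0.749 between 2 and 3, and 0.631 between 1 and 3. Each result against D0 below is therefore given with and without D0 replicate 2 where that changes it.

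**Figure D2:**
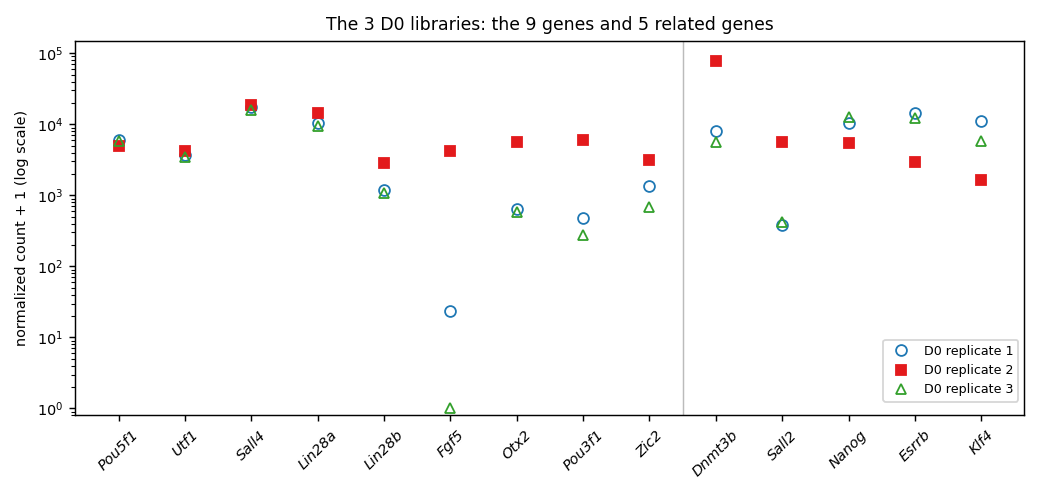
Normalized counts plus 1 (vertical, log scale) of the 9 genes and of 5 related genes (horizontal, right of the line) in the 3 D0 libraries, 1 marker per replicate. Replicate 2 lies far above the others for Fgf5, Otx2 and Pou3f1 and below them for the naive factors, whereas the 3 libraries lie close together for Pou5f1, Utf1 and Sall4.

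Pou5f1, the POU factor at the centre of the pluripotency network, lies at chr17:35506018-35510772 (GRCm38, + strand) and Utf1, one of its known targets, at chr7:139943789-139945112 (+ strand). Both were called lower after D0, so their upstream sequences are shown side by side, 5′ to 3′, from the RefSeq table of GRCm38.p6: chr17:35505782-35506017 for Pou5f1 and chr7:139943606-139943788 for Utf1, up to 250 bases before the start site and cut where exons of the gene begin. Capitals mark GGGCGG (the GC box bound by SP factors) in both and AGGTCA (the nuclear receptor half-site, as bound by RA receptors and others) in Pou5f1.
Pou5f1: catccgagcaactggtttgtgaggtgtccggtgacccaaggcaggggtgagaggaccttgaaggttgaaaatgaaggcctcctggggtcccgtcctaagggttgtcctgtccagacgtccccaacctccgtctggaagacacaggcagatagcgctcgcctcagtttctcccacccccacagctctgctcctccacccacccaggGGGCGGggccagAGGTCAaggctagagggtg
Utf1: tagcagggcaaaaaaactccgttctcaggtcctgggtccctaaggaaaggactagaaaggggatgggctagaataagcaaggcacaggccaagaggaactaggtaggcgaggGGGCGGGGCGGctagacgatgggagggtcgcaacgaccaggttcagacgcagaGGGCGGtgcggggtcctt
Both strands were searched in 250 bases. GGGCGG is held by 32.7% and AGGTCA by 14.0% of 32851 promoters, so neither is rare. In Utf1 2 of the matches share bases. A match is a description of the letters and not a bound site.

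Pou5f1 was lower in each sorted population at D2 than at D0. Its D2 normalized counts were 650, 1554 and 1201 in Sox1-FoxA2- cells and 352, 742 and 1455 in Sox1+FoxA2- cells. In the FoxA2+ populations they were 56.0, 256 and 156 (Sox1-FoxA2+) and 87.3, 309 and 0 (Sox1+FoxA2+). No D2 library reached the lowest D0 library (4882), and each Sox1-FoxA2+ library lay below each FoxA2- library. From D0 to D2 Pou5f1 fell by 2.24 ± 0.54 (SE) on the log2 scale in Sox1-FoxA2- cells (adjusted p = 0.0482). It fell by 2.67 ± 0.63 in the Sox1+FoxA2- population (0.0438), and among Sox1-FoxA2+ cells it fell by 5.09 ± 1.19 (0.0264). In Sox1+FoxA2+ cells the change was -5.31 ± 1.24, with an adjusted p of 0.0537, which came under 0.05 without each of 11 of the 12 libraries of that fit, the exception being D2 Sox1+FoxA2+ replicate 1. It was 0.0192 without D0 replicate 2. The steps in Sox1-FoxA2- and Sox1+FoxA2- cells were close to the threshold. That in Sox1-FoxA2- cells was no longer called without D0 replicate 1 (adjusted p = 0.0976), 2 (0.0513) or 3 (0.0797), D2 replicate 1 (0.205), 2 (0.0771) or 3 (0.146), or D6 replicate 1 (0.0584). That in Sox1+FoxA2- cells was lost without D0 replicate 1 (0.0762) or 3 (0.0628) or D2 replicate 1 (0.150) or 2 (0.121), and that in Sox1-FoxA2+ cells without D2 replicate 1 (0.0906) or 3 (0.0696).

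By D6 Pou5f1 was at 819, 490 and 592 in Sox1-FoxA2- cells, at 390, 590 and 642 in Sox1+FoxA2- cells and at 208, 397 and 114 in Sox1-FoxA2+ cells. All were below D0, and the Sox1-FoxA2+ libraries lay below the Sox1-FoxA2- ones and overlapped the Sox1+FoxA2- ones. The changes of Pou5f1 from D0 were, in the same order, -3.15 ± 0.56 (adjusted p = 0.00622), -3.53 ± 0.65 (0.00472) and -4.54 ± 1.16 (0.0209) on the log2 scale. The first of these calls held without each of the 12 libraries of its fit, as did the second, and the third was lost without D6 Sox1-FoxA2+ replicate 1 (0.0591). With all 57 libraries in 1 fit none of the 3 was called (0.260, 0.154 and 0.0881). In D6 Sox1+FoxA2+ cells the libraries spread from 193 to 1847, with 674 in the library labelled Sox1+FoxA2+ replicate 1, and the change of -2.82 ± 1.10 was not called (0.172). Pou5f1 did not reach 0 in any sorted library of D6. Bulk counts cannot tell fewer cells with Pou5f1 RNA from less RNA in each cell. The summed markers of undifferentiated ESCs, all 5 with counts in each condition, moved alongside. They ran from 20406 to 71746 in D0, from 9660 to 31806 in D2 Sox1-FoxA2- cells, from 2058 to 2460 in D2 Sox1-FoxA2+ cells and from 13813 to 19881 in D6 Sox1-FoxA2- cells. Their part in the level of Pou5f1 was not tested.

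Utf1 was at 236, 1012 and 737 in D2 Sox1-FoxA2- cells and at 137, 393 and 232 in D2 Sox1+FoxA2- cells. It was at 50.6, 202 and 0 in Sox1-FoxA2+ cells and at 412, 138 and 0 in Sox1+FoxA2+ cells. All lay below the D0 libraries, and the 4 populations overlapped except that each Sox1-FoxA2+ library was below each Sox1-FoxA2- library. From D0 to D2 Utf1 fell by 3.87 ± 0.67 on the log2 scale in Sox1+FoxA2- cells (adjusted p = 0.00638), a call that held without each of the 12 libraries. It was not called with all 57 libraries in 1 fit (0.341). In Sox1-FoxA2+ cells it fell by 5.40 ± 1.42 (0.0483), and this call was lost without D0 replicate 1 (0.0647), 2 (0.0585) or 3 (0.0573) or D2 replicate 1 (0.146) or 3 (0.0513). The changes from D0 to D2 in Sox1-FoxA2- and Sox1+FoxA2+ cells were not called (0.237 and 0.385). At D6 Utf1 was at 850, 1259 and 238 in Sox1-FoxA2- cells and at 698, 151 and 782 in Sox1+FoxA2- cells, ranges that overlap those of D2. It was at 55.0, 114 and 0 in Sox1-FoxA2+ cells, below each library of both FoxA2- populations. The difference from D0 was -3.03 ± 0.64 in Sox1+FoxA2- cells (0.0106) and -6.09 ± 1.48 in Sox1-FoxA2+ cells (0.0154), and both calls held without each of the 12 libraries. With all 57 libraries in 1 fit the first was not called (0.214). In D6 Sox1+FoxA2+ cells Utf1 ran from 0 to 576. The changes from D0 to D6 in Sox1-FoxA2- and Sox1+FoxA2+ cells were not called (0.187 and 0.182).

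Sall4 (chr2:168748332-168767943, - strand) kept far more of its D0 level at D2 than Pou5f1 and Utf1 did. At D6 this no longer held against Utf1 in Sox1-FoxA2- cells. There the mean of Sall4 was 4240, against 17358 in D0, and that of Utf1 was 782, against 3822. That change of Utf1 was not called (adjusted p = 0.187). At D2 Sall4 lay between 7422 and 12423 normalized counts in the 4 populations, against 16047 to 18657 in D0. The D2 and D0 ranges did not overlap, yet none of the changes (-1.03 to -0.68) was called at D2, the smallest adjusted p being 0.0693 in Sox1-FoxA2+ cells. In these cells the call depended on the setting: it was made without D4 Sox1-FoxA2+ replicate 3 (0.0482) or D6 Sox1-FoxA2+ replicate 3 (0.0347), by DESeq2 (0.00289), with DESeq2 size factors in edgeR (0.0434) and with no filter on low counts (0.0265). By D6 Sall4 was at 3759, 6936 and 2023 in Sox1-FoxA2- cells, at 6605, 6026 and 3211 in Sox1+FoxA2- cells and at 11669, 15390 and 9472 in Sox1-FoxA2+ cells. Each D6 Sox1-FoxA2+ library was above each library of both FoxA2- populations and above each D2 Sox1-FoxA2+ library. From D0 to D6 Sall4 fell by 2.06 ± 0.36 on the log2 scale in Sox1-FoxA2- cells (adjusted p = 0.006). It fell by 1.90 ± 0.36 in the Sox1+FoxA2- population (0.00604), and both calls held without each of the 12 libraries and in each other alternative tried. In Sox1-FoxA2+ cells the change from D0 was -0.55 ± 0.29 (0.244). In Sox1+FoxA2+ cells it was -1.41 ± 0.50 (0.127), and it was called without D6 Sox1+FoxA2+ replicate 2 (0.0231) or D4 Sox1+FoxA2+ replicate 3 (0.0466). The change from D2 to D6 differed between Sox1-FoxA2+ and Sox1+FoxA2- cells by 1.66 ± 0.55, which was not called (adjusted p = 0.396, unadjusted p = 0.00476). For this difference of changes edgeR called 0 of the 9 genes (3 with an unadjusted p under 0.05, 0 by DESeq2) and 0.188% of all genes.

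LIN28A and LIN28B both block the maturation of let-7 microRNAs, and their genes had different patterns over the conditions. Lin28a lies at chr4:134003330-134018841 (- strand) and Lin28b at chr10:45376620-45486395 (- strand). The upstream sequences of this pair are shown because the pair share a function and not a pattern here: chr4:134018842-134019066 for Lin28a and chr10:45470202-45470451 for Lin28b, read on the - strand, from the same RefSeq table. For Lin28b the sequence precedes 1 start site inside the annotated gene. Capitals mark CACGTG (the E-box bound by MYC and MAX) and ATTGG, the reverse complement of CCAAT (the box bound by NF-Y), both in Lin28b.
Lin28a: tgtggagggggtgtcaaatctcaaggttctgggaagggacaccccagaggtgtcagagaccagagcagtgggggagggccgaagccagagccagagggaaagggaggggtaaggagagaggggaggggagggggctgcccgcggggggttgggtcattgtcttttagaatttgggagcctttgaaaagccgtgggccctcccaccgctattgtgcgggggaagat
Lin28b: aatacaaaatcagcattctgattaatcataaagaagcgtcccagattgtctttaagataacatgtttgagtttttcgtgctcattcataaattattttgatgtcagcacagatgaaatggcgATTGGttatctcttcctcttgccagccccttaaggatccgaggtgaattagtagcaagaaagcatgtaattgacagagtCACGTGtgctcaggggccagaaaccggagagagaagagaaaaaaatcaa
The Lin28a window held neither of these boxes, no match to the GC box or the half-site above and no TATAAA (the TATA box). CACGTG is held by 6.02%, CCAAT by 33.8% and TATAAA by 12.4% of the 32851 promoters. The sequences of 6 of the 9 genes are in the table, and those of Fgf5 and Otx2 are not printed.

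Lin28a was at 2799 or more in each sorted library of RA, with a level that differed by population and day. Among the sorted populations of D4 its lowest mean was in Sox1+FoxA2+ cells, at 4790 to 8769 (mean 6259), below each D0 library. At D2 it was at 10726, 8417 and 5413 in Sox1-FoxA2- cells, at 15373, 16225 and 11664 in Sox1+FoxA2- cells and at 15543, 15264 and 15150 in Sox1-FoxA2+ cells. In Sox1+FoxA2+ cells it was at 19139, 23410 and 17305, above each library of the other D2 populations. The D2 Sox1-FoxA2- libraries were below all marker-positive libraries of the same day. Set against Sox1-FoxA2- cells, the Sox1+FoxA2+ cells differed by a log2 value of 1.29 ± 0.24, with an adjusted p of 0.0622, which came under 0.05 without D2 Sox1-FoxA2- replicate 1 (0.0408) or D2 Sox1+FoxA2- replicate 3 (0.0427) and by DESeq2 (2.76e-05). At D6 Lin28a was at 9710, 18650 and 7097 in Sox1+FoxA2- cells and at 9232, 13366 and 10457 in Sox1-FoxA2+ cells, ranges that overlap that of the D0 libraries (10362, 14453 and 9570). The changes from D0 to D6 in these populations were -0.12 ± 0.35 and -0.11 ± 0.30 (adjusted p = 0.862 and 0.874). In Sox1-FoxA2- cells it was at 6142, 8795 and 2799, below D0 in each library, and the change of -0.99 ± 0.41 was not called (0.190). In Sox1+FoxA2+ cells the D6 libraries were at 5317, 13549 and 5354 and the change from D0 was -0.74 ± 0.43 (0.296), which was -1.51 and called without D6 Sox1+FoxA2+ replicate 2 (0.0225).

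Lin28b had its highest values after D0, in FoxA2- populations. It was at 5175, 3571 and 7478 in D4 Sox1+FoxA2- cells and at 3680, 4607 and 4067 at D6, where each library exceeded the highest D0 library (2871). In Sox1-FoxA2+ cells it was at 3375, 2400 and 2648 at D2, at 1158, 1485 and 1433 at D4 and at 749, 432 and 2427 at D6. The D4 libraries of these cells lay below those of each other D4 population (2200 to 7478). The change from D0 to D6 in Sox1+FoxA2- cells was 1.07 ± 0.44 and not called (adjusted p = 0.136). Without D0 replicate 2 it was 1.64 and called (0.0314), as was that of Sox1-FoxA2- cells at 1.37 (0.0497) against 0.66 ± 0.40 with the library (0.348). From D2 to D6 Lin28b in Sox1-FoxA2+ cells changed by -1.34 ± 0.53 (0.303), and without D6 Sox1-FoxA2+ replicate 3, the high library, by -2.23 and was called (0.0264).

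The 4 formative genes were low after D0 in most libraries. Fgf5 (chr5:98254184-98277030, + strand) was at 0 in all 3 D2 Sox1+FoxA2+ libraries, and at most at 67.3 in any D2 library. Against the D0 mean this is at least 493.9-fold lower by a floor of 3 counts per library, but that mean rests on D0 replicate 2, without which the bound is 3.93-fold. At D6 Fgf5 was at 129, 246 and 296 in Sox1-FoxA2- cells, at 337, 110 and 343 in Sox1+FoxA2- cells, at 151, 13.1 and 787 in Sox1-FoxA2+ cells and at 1030, 0 and 30.6 in Sox1+FoxA2+ cells. Each D6 library of both FoxA2- populations was above each of their D2 libraries, which reached 67.3 at most. The changes from D2 to D6 there were 4.83 ± 2.15 (Sox1-FoxA2-, adjusted p = 0.714) and 2.77 ± 1.85 (Sox1+FoxA2-, 0.642). Set against D0, the direction depended on 1 library: the D6 minus D0 change of Fgf5 was between -2.74 and -2.32 over the 4 populations with D0 replicate 2 and between 4.22 and 4.60 without it, and none was called in either case.

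Otx2 (chr14:48657677-48673819, - strand) was at 47.0, 0 and 2.19 in D2 Sox1-FoxA2+ cells, below each D0 library. It fell by 7.18 ± 1.88 on the log2 scale from D0 (adjusted p = 0.0458). The call was lost without D0 replicate 2 (0.347), D2 replicate 2 (0.0811) or 3 (0.117), or D4 Sox1-FoxA2+ replicate 2 (0.0505). In the other D2 populations Otx2 lay between 0 and 258, also below D0, and was not called. At D6 it ran from 0 to 609 over the 12 libraries, the highest in the library labelled Sox1+FoxA2+ replicate 1.

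Pou3f1 (chr4:124656807-124660655, + strand) was at 0, 0 and 0 in D6 Sox1-FoxA2+ cells and at 388, 263 and 12.9 in D6 Sox1+FoxA2- cells. Each library of the second population was above those of the first. Against the D0 mean the D6 Sox1-FoxA2+ level is at least 639-fold lower by the floor of 3 counts, and the difference from D0 was called (adjusted p = 0.00261). Both rest on D0 replicate 2: without it the bound is 106-fold and the difference was not called (0.0726). Pou3f1 was also at 0 in all 3 D4 Sox1+FoxA2+ progeny libraries. At D2 it was at 534, 716 and 488 in Sox1+FoxA2- cells, above each library of the other D2 populations (0 to 405), and none of the 3 differences was called.

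Zic2 (chr14:122475435-122479852, + strand) was at 534, 758 and 1021 in D2 Sox1-FoxA2- cells and at 380, 758 and 1041 in the same cells at D6, with ranges that overlap each other and D0. In Sox1-FoxA2+ cells it was at 119, 78.9 and 12.7 at D4 and at 171, 39.3 and 0 at D6, below each library of both FoxA2- populations of the same day. The D4 difference from Sox1+FoxA2- cells (784, 1096 and 659) was -3.55 ± 0.96 on the log2 scale and not called (adjusted p = 0.241), and was called by DESeq2 (0.000168). From D0 to D6 Zic2 in Sox1-FoxA2+ cells changed by -4.66 ± 1.47 (0.0610). It was called without D6 replicate 1 (0.0364), D2 replicate 2 (0.0434) or 3 (0.0360), D4 replicate 3 (0.0494) or D0 replicate 3 (0.0483), by DESeq2 (0.00382) and with no filter (0.000728). Without D0 replicate 2 it was -3.81 and farther from a call (0.249).

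Counted together, 6 of the 36 values from D0 to D2 were called, all lower, and 23 had an unadjusted p under 0.05. The share of all genes with an unadjusted p under 0.05 was not counted, here or in the other comparisons. By population 1 of the 9 genes was called in Sox1-FoxA2- cells, where 1.41% of all genes tested were called, 2 in the Sox1+FoxA2- population (1.19%) and 3 in Sox1-FoxA2+ cells (2.94%), while Sox1+FoxA2+ cells had 0 (0.53%). From D0 to D6, 8 of 36 were called, all lower: 2 in Sox1-FoxA2- cells (4.02% of all genes), 3 in the Sox1+FoxA2- population (6.12%) and 3 in Sox1-FoxA2+ cells (7.96%), while Sox1+FoxA2+ cells had 0 (3.33%). The median change of the 9 genes from D0 to D6 was -2.31, -2.68, -4.54 and -2.58, beside 0.30, 0.58, 0.21 and 0.65 over all genes tested. Without D0 replicate 2 these medians were -1.16, -1.09, -3.04 and -1.33, beside 0.63, 0.92, 0.35 and 1.00. From D2 to D6 edgeR called 0 of 36 values, with 8 at an unadjusted p under 0.05 and 2 called by DESeq2, where 0.0517%, 0%, 1.47% and 0.0449% of all genes were called. The 4 populations are set against the same D0 libraries, so the populations' counts are not independent. Without D0 replicate 2 the calls were 4 from D0 to D2 and 9 from D0 to D6. Over all genes, in the same order of populations, 432 of 23450, 425 of 25302, 638 of 22624 and 208 of 24832 were then called from D0 to D2. From D0 to D6 these were 940 of 23450, 1446 of 25302, 1429 of 22624 and 668 of 24832.

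**Figure D3:**
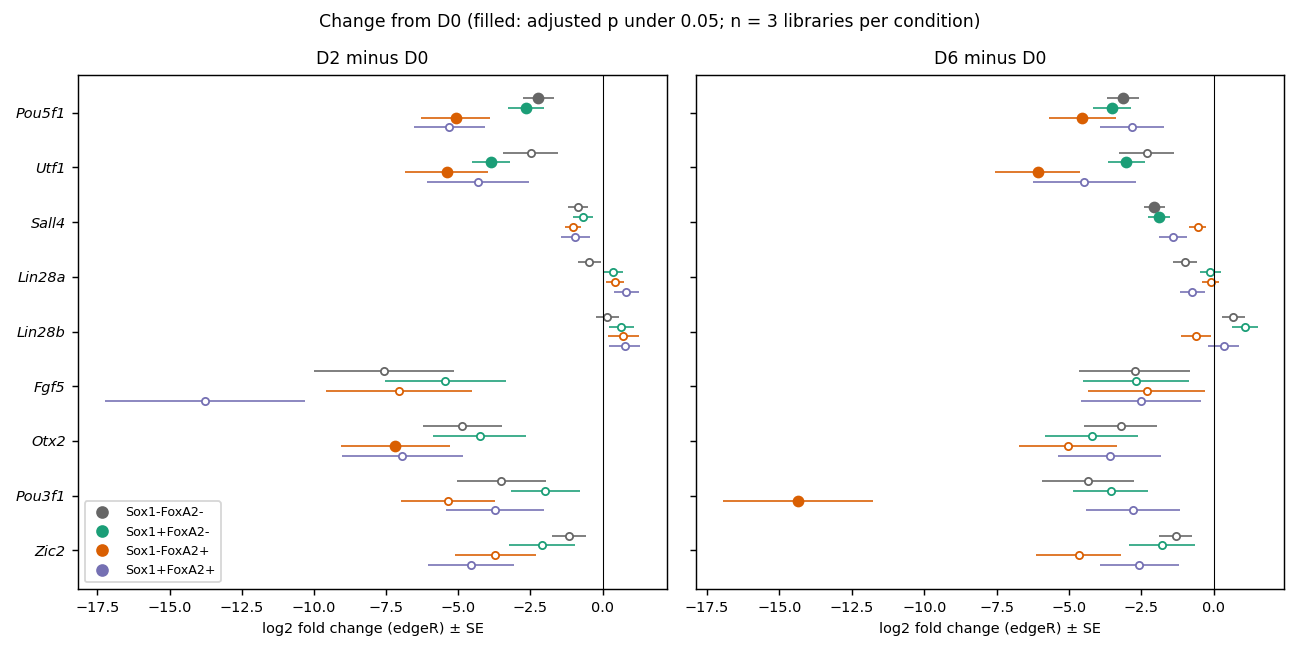
Log2 fold change (horizontal, edgeR, bars ± SE, n = 3 libraries a condition) of the 9 genes from D0 to D2 and from D0 to D6 (panels), coloured by population, with filled points for an adjusted p under 0.05. Filled points lie at Pou5f1 and Utf1 in both panels, at Otx2 at D2 and at Sall4 and Pou3f1 at D6, all to the left of 0, while Lin28a and Lin28b lie around 0.

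Between sorted populations of the same day few of the genes were called. At D2 edgeR called 0 of 54 values (8 with an unadjusted p under 0.05, 2 by DESeq2). Of all genes, 0.0196% were called for Sox1-FoxA2+ against Sox1-FoxA2- cells, 0.0442% for Sox1+FoxA2+ against Sox1-FoxA2- cells and 0% in the other 4 comparisons. Of the 54 values, 18 had groups of libraries that did not overlap. Against Sox1-FoxA2- cells these were 5 of the 9 genes for Sox1-FoxA2+ (15.2% of all genes), 2 for Sox1+FoxA2- (11.5%) and 3 for Sox1+FoxA2+ cells (17.3%). Against Sox1+FoxA2- cells they were 3 for Sox1-FoxA2+ (10.1%) and 4 for Sox1+FoxA2+ cells (11.1%), and between the FoxA2+ populations 1 gene (8.5%). At D4 1 of 54 was called, for Sox1-FoxA2+ against Sox1+FoxA2- cells (0.227% of all genes). The other comparisons of that day called 0.462% of all genes for Sox1+FoxA2+ against Sox1-FoxA2+ cells, 0.266% for Sox1-FoxA2+ against Sox1-FoxA2- cells and 0% elsewhere. Lin28b was lower in Sox1-FoxA2+ cells by a log2 difference of -1.91 ± 0.38 (adjusted p = 0.0402), and the call was lost without D4 Sox1-FoxA2- replicate 1 (0.0573) or 3 (0.0581), D4 Sox1+FoxA2- replicate 1 (0.116) or 3 (0.128) or D4 Sox1-FoxA2+ replicate 1 (0.336), 2 (0.136) or 3 (0.174). At D6 0 of 54 were called (9 with an unadjusted p under 0.05, 4 by DESeq2), and the share of all genes called was 1.09% for Sox1-FoxA2+ and 0.0992% for Sox1+FoxA2+ against Sox1+FoxA2- cells, and 0.0454% between the FoxA2+ populations. Against Sox1-FoxA2- cells it was 0.83% for Sox1-FoxA2+, 0% for Sox1+FoxA2- and 0.0909% for Sox1+FoxA2+ cells. Between D6 Sox1-FoxA2+ and Sox1+FoxA2- libraries Utf1, Sall4, Lin28b, Pou3f1 and Zic2 did not overlap, 5 of 9, against 23.2% of all genes. Sall4 was higher in Sox1-FoxA2+ cells by 1.39 ± 0.50 (adjusted p = 0.286). Here the replicate numbers pair the libraries, and with the replicate as a block the difference was called (0.0220). The difference in Lin28b, -1.72 ± 0.53 (0.158), was called without D6 Sox1-FoxA2+ replicate 3 (0.0148) and by DESeq2 (0.0405). The summed endoderm markers (Foxa2, Sox17, Gata4, Gata6, Lama1, Dab2, Cubn, with counts for 7 of 7) ran from 382317 to 761878 in D6 Sox1-FoxA2+ cells and from 4429 to 5925 in D6 Sox1+FoxA2- cells. Their part in the levels of Sall4 and Lin28b was not tested.

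In the progeny, Sall4 was highest in the Sox1-FoxA2+ lineage and Lin28b in the Sox1+FoxA2- lineage. At D4 Sall4 was at 13955, 12501 and 4659 in Sox1-FoxA2+ progeny, at 3053, 1127 and 3424 in Sox1+FoxA2- progeny and at 2601, 2904 and 3387 in Sox1+FoxA2+ progeny. Each Sox1-FoxA2+ library was above the libraries of the other lineages. It was higher than in Sox1+FoxA2- progeny by 2.08 ± 0.41 on the log2 scale (adjusted p = 0.0118), a call lost without D4 Sox1-FoxA2+ progeny replicate 1 (0.0559). The Sox1+FoxA2+ progeny were lower than the Sox1-FoxA2+ progeny by a log2 difference of -1.89 ± 0.41 (0.0396). That call was lost without replicate 1 (0.163) or 2 (0.142) of the Sox1-FoxA2+ progeny or replicate 1 (0.176), 2 (0.115) or 3 (0.0836) of the Sox1+FoxA2+ progeny. Lin28b was at 1147, 1394 and 2183 in Sox1-FoxA2+ progeny and at 4648, 4544 and 3916 in Sox1+FoxA2- progeny, with no overlap. The difference was -1.44 ± 0.28 (0.0104), lost without replicate 1 (0.0528) or 2 (0.0524) of the Sox1-FoxA2+ progeny. Lin28a was at 7476, 7117 and 3173 in Sox1-FoxA2+ and at 2016, 1386 and 2522 in Sox1+FoxA2+ progeny, again with no overlap, and differed by -1.68 ± 0.35 (0.0315). It was not called without replicate 1 (0.144) or 2 (0.157) of the Sox1-FoxA2+ progeny or replicate 1 (0.140) or 2 (0.135) of the Sox1+FoxA2+ progeny. These 4 calls are 2 of 9 genes in Sox1-FoxA2+ against Sox1+FoxA2- progeny (1.86% of all genes), 2 in Sox1+FoxA2+ against Sox1-FoxA2+ progeny (0.768%) and 0 in Sox1+FoxA2+ against Sox1+FoxA2- progeny (0%).

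At D6 Sall4 was at 9100, 15518 and 15091 in Sox1-FoxA2+ progeny. It was at 1261, 1097 and 3007 in Sox1+FoxA2- progeny and at 1709, 1967 and 2442 in Sox1+FoxA2+ progeny. The lowest Sox1-FoxA2+ library was above the highest of the other lineages. The difference from Sox1+FoxA2- progeny was 2.86 ± 0.36 (adjusted p = 0.000303) and that of Sox1+FoxA2+ from Sox1-FoxA2+ progeny was -2.71 ± 0.36 (0.0012). Both calls held without each of the 9 libraries and in each other alternative tried, where the highest adjusted p was 0.00773. Lin28a was at 3201, 3761 and 4131 in Sox1-FoxA2+ progeny and at 561, 722 and 1589 in Sox1+FoxA2- progeny, with no overlap, and was higher by 1.92 ± 0.53 (0.0444). This call was lost without replicate 1 (0.172) or 2 (0.134) of the Sox1+FoxA2- progeny or replicate 2 (0.0794) or 3 (0.0837) of the Sox1-FoxA2+ progeny. Lin28b was at 1696, 329 and 479 in Sox1-FoxA2+ progeny and at 1573, 2398 and 2201 in Sox1+FoxA2- progeny. The groups overlapped through replicate 1 of the first, and the difference of -1.33 ± 0.52 (0.178) was -2.42 and called without it (0.000594). At D6 2 of the 8 genes tested were called in Sox1-FoxA2+ against Sox1+FoxA2- progeny (6.78% of all genes), 1 in Sox1+FoxA2+ against Sox1-FoxA2+ progeny (4.48%) and 0 in Sox1+FoxA2+ against Sox1+FoxA2- progeny (0.152%). Otx2, at 0 to 86.1 in these libraries, was too low to be tested. The endoderm markers summed to between 364739 and 737937 in Sox1-FoxA2+, 66057 and 172230 in Sox1+FoxA2+ and 13662 and 31428 in Sox1+FoxA2- progeny, with 7 of 7 called higher in the first than in the last, and their part in the differences was not tested.

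From D4 to D6 within the progeny edgeR called 0 of 27 values (4 with an unadjusted p under 0.05, 1 by DESeq2), where 0.025%, 0.4% and 0.104% of all genes were called in Sox1+FoxA2-, Sox1-FoxA2+ and Sox1+FoxA2+ progeny. Lin28b in Sox1-FoxA2+ progeny changed by -0.95 ± 0.42 (adjusted p = 0.561), and by -1.97, a call (0.00437), without D6 replicate 1.

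**Figure D4:**
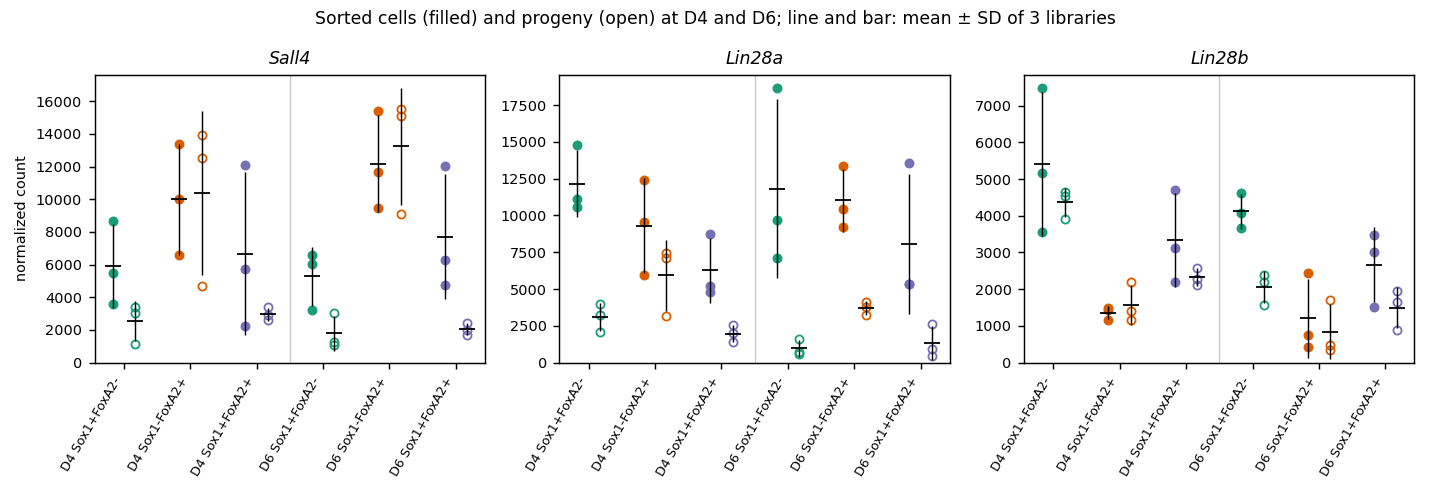
Normalized counts (vertical, linear scale from 0) of the genes named above each panel in sorted cells (filled) and progeny (open) of the 3 marker-positive populations at D4 and D6 (horizontal), with a point per library and a line and bar for the mean ± SD of 3. Sall4 stays high in Sox1-FoxA2+ progeny and is at most at 3424 in the other progeny, while Lin28a is lower in progeny than in sorted cells of each population at D6.

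Progeny replated in serum and cells kept in N2B27 until the same day were compared over the 3 marker-positive populations. At D4 1 of 9 genes was called (7.35% of all genes): Lin28a was lower in progeny by a log2 difference of -1.26 ± 0.25 (adjusted p = 0.00211). At D6 4 of 9 were called, all lower in progeny, against 13.6% of all genes called and 5.83% called lower. Pou5f1 was at 390, 590 and 642 in sorted and at 0, 0 and 67.6 in progeny Sox1+FoxA2- cells, and at 208, 397 and 114 in sorted and 0, 63.7 and 50.3 in progeny Sox1-FoxA2+ cells. In Sox1+FoxA2+ cells it was at 674, 1847 and 193 in sorted cells and at 0, 24.7 and 14.2 in progeny. No progeny library reached a sorted library of its population, and the difference was -4.26 ± 1.15 (0.0138). Lin28a had a difference of -2.41 ± 0.36 (0.000110), with 441 to 4131 in the 9 progeny libraries and 5317 to 18650 in the 9 sorted ones. The D4 and D6 calls of Lin28a and that of Pou5f1 held without each of the 18 libraries and in each other alternative tried. Sall4 differed by -0.92 ± 0.30 (0.0452), a mean over populations that did not move alike: it was lower in Sox1+FoxA2- and Sox1+FoxA2+ progeny, and in Sox1-FoxA2+ cells the progeny (9100 to 15518) and the sorted cells (9472 to 15390) overlapped. This call was lost without each of 9 of the 18 libraries. These were sorted Sox1+FoxA2- replicates 1 (0.0967) and 2 (0.0912), sorted Sox1+FoxA2+ replicates 2 (0.0737) and 3 (0.0647), Sox1+FoxA2- progeny replicates 1 (0.0753) and 2 (0.0746) and Sox1+FoxA2+ progeny replicates 1 (0.101), 2 (0.0977) and 3 (0.0877). Fgf5 differed by -4.21 ± 1.41 (0.0475), with 0 to 52.3 in progeny and 0 to 1030 in sorted cells. It was lost without each of 11 of the 18 libraries, with the highest adjusted p, 0.245, without the library labelled Sox1+FoxA2+ replicate 1. The others were sorted Sox1+FoxA2- replicates 1 (0.0715) and 3 (0.0690), sorted Sox1-FoxA2+ replicate 3 (0.0781), Sox1+FoxA2- progeny replicates 1 (0.0632) and 2 (0.0649), Sox1-FoxA2+ progeny replicates 1 (0.0637), 2 (0.0685) and 3 (0.0686) and Sox1+FoxA2+ progeny replicates 1 (0.0626) and 3 (0.0756).

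Genes that work with the 9 were followed in lists. From D0 to D6 the share of all genes tested that was called lower was 1.72% in Sox1-FoxA2- cells, 2.8% for Sox1+FoxA2-, 3.48% for Sox1-FoxA2+ and 1.55% for Sox1+FoxA2+. Of the 14 tested partners of the formative state (such as Nanog, Dnmt3a, Dnmt3b, Etv5, Tdgf1 and Cdh1), 4 were called lower from D0 to D6 in Sox1-FoxA2- cells, 5 in Sox1+FoxA2-, 7 in Sox1-FoxA2+ and 3 in the Sox1+FoxA2+ population, and 0 higher. Their median changes were -1.71, -2.33, -3.06 and -2.21, beside the medians over all genes given above. Without D0 replicate 2 the counts called lower were 3, 5, 5 and 4, with Sall2 called higher in Sox1+FoxA2- cells, and the medians -1.58, -1.95, -2.88 and -1.92. The calls over all genes without that library, in either direction, are given above, for this list and for the naive genes. Etv5, an ETS factor downstream of FGF signalling, was called in all 4 populations, by -2.17 ± 0.36, -2.64 ± 0.36, -3.60 ± 0.47 and -3.32 ± 0.52. Dnmt3b changed by -3.74 ± 0.77 (Sox1-FoxA2-) and -3.66 ± 0.72 (Sox1+FoxA2-), against D0 libraries of which replicate 2 was the high one. Without it the changes were -1.47 ± 0.41, no longer called (adjusted p = 0.0524), and -1.53 ± 0.40 (0.0257). Tdgf1, a NODAL co-receptor, fell by 9.28 ± 1.68 in Sox1-FoxA2+ cells. Of the 12 naive genes 1, 7, 5 and 2 were called lower and 0 higher, and 3, 8, 6 and 2 lower without D0 replicate 2, with Zfp42 at -3.07 ± 0.73 (Sox1+FoxA2-), -4.04 ± 0.46 (Sox1-FoxA2+) and -3.14 ± 0.73 (Sox1+FoxA2+). None of the tested genes of the anterior neural plate list (4 to 6 a population) was called in these comparisons, and without D0 replicate 2 only Lhx2 was, higher in Sox1+FoxA2- cells.

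Of the 11 tested genes of the LIN28 and let-7 axis, 1 was called higher and 1 lower from D0 to D6 in Sox1-FoxA2- cells, 3 higher and 1 lower in Sox1+FoxA2- cells, and 1 higher and 0 lower in each FoxA2+ population. Their median changes were 1.06, 0.91, 0.69 and 0.85, beside the medians over all genes given above. In the same order, 4.02%, 6.12%, 7.96% and 3.33% of all genes tested were called in either direction. Without D0 replicate 2, 3, 2, 2 and 2 of the list were called higher and 1, 1, 0 and 0 lower. Their medians were then 1.30, 0.90, 0.72 and 0.65. The calls and medians over all genes without that library are given above. Hmga2, a chromatin protein and a let-7 target, was called higher from D0 to D6 in all 4 populations, by 5.12 ± 0.90 (Sox1-FoxA2-), 4.45 ± 0.91 (Sox1+FoxA2-), 2.81 ± 0.75 (Sox1-FoxA2+) and 3.77 ± 0.87 (Sox1+FoxA2+) on the log2 scale. Mycn fell by 2.20 ± 0.45 among Sox1-FoxA2- cells, and it fell by 2.55 ± 0.54 in the Sox1+FoxA2- population. In Sox1+FoxA2- cells Igf2bp3, an RNA-binding protein, rose by 1.41 ± 0.41 and Dis3l2, the nuclease that degrades uridylated pre-let-7, rose by 1.70 ± 0.43. Without D0 replicate 2 Dis3l2 was not called (1.48 ± 0.51, adjusted p = 0.0934), and Igf2bp3 was called higher in all 4 populations (1.43 to 2.09). In progeny Hmga2 was lower in the Sox1-FoxA2+ than in the Sox1+FoxA2- lineage, as Lin28b was, with log2 differences of -3.11 ± 0.40 at D4 (adjusted p = 0.000302) and -3.95 ± 0.40 at D6 (7.1e-05). Igf2bp3 was lower there at D6, with a difference of -0.86 ± 0.20 (0.0185). In D6 progeny against sorted cells the uridylyltransferases Tut4 and Tut7, which act on pre-let-7 bound by LIN28, were called higher by 0.78 ± 0.19 and 0.72 ± 0.20, as was Arid3a by 1.06 ± 0.24, beside 7.74% of all genes.

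The likeness of the genes was described by Pearson's r over the 19 condition means, on log2 of normalized counts plus 1. The conditions share libraries' depth and the D0 step, so no test is given. The closest pair was Sall4 and Lin28a (0.77, and 0.78 without D0, an alternative chosen after seeing the data), followed by Pou5f1 and Otx2 (0.76, 0.68 without D0), and Utf1 and Otx2 (0.71, 0.55 without D0). Sall4 and Lin28b were the most opposed (-0.37). Lin28a and Lin28b were at 0.22. Among 13922 genes with a mean of at least 100 normalized counts, those nearest to Sall4 were Shcbp1 (0.90), Birc5 (0.89) and Wdr62 (0.88), and those nearest to Lin28a were Rab11fip4 (0.94), Cenpf (0.93) and Nuf2 (0.92). Birc5, Cenpf and Nuf2 encode proteins of chromosome segregation. Nearest to Lin28b were Msi1 (0.87), an RNA-binding protein of neural progenitors, Zc3h7b (0.87) and Mest (0.86). Nearest to Pou5f1 were Zfp808 (0.91), Zfp984 (0.90) and Zfp985 (0.89), the last pair from a family of near-identical copies and so uncertain, and nearest to Utf1 were Klf2 (0.90), Platr10 (0.88) and Cars (0.86). For Fgf5 they were Rgs22 (0.86), Gja5 (0.84) and 9430041J12Rik (0.84), for Otx2 Bckdhb (0.88), Pdk1 (0.86) and Pfkp (0.85), for Pou3f1 Polr1a (0.81), Ngfr (0.81) and Hikeshi (0.80), and for Zic2 9330185C12Rik (0.87), 4930519F16Rik (0.85) and Gm5039 (0.85).

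**Figure D5:**
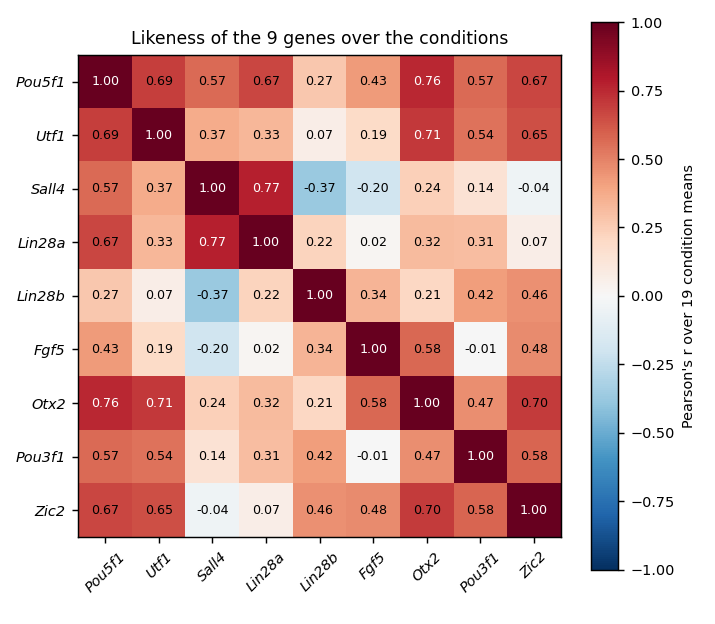
Pearson's r over the 19 condition means between each pair of the 9 genes (both axes), on log2 of normalized counts plus 1, with the value in each square and the colour scale at the side. Sall4 and Lin28a are the closest pair (0.77) and Sall4 and Lin28b the most opposed (-0.37).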

How the data were processed

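Bulk RNA-seq of 57 sorted or replated mouse cell populations was analysed. Per the labels and the study's methods, the authors made stranded libraries with the SMART-Seq Stranded Kit from about equal numbers of cells, sorted or, for progeny, harvested and counted by hand, aligned reads with STAR, and counted them with featureCounts on GENCODE M21 (GRCm38), with tool versions not given in the sources used here. The deposited values are raw counts per gene, not normalized. The 92 lines that name no gene held 0 counts and were left out.

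Levels are counts divided by DESeq2 1.42.0 size factors. Tests used edgeR 4.0.16 in R 4.3.3 (quasi-likelihood, TMM, filterByExpr with a minimum count of 10 and total of 15, prior count 0.125), two-sided, with Benjamini-Hochberg adjustment over all genes tested and calls under 0.05. Fits held D0, D2, D4 and D6 of 1 population, the populations of 1 day, the progeny, or progeny and sorted cells of 1 day with population as a term. With 3 libraries against 3, an exact permutation test of 1 gene cannot go below 0.1, so none is given. Tests were checked on simulated data, where DESeq2 made more false calls than edgeR. Simulated counts need not vary as these libraries do, so that check cannot decide whether calls made by DESeq2 alone are false.

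The 9 genes and the lists were chosen with earlier results of these data known. Named were the 9 genes, up to 4 called genes of each list with the largest changes in a comparison, and the 3 genes most alike each of the 9. Genes named for the D0 libraries (Dnmt3b, Sall2, Esrrb, Klf4 and Zfp42) and for the gates (Foxa2) were chosen after their values were seen.

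Whether replicate numbers pair the libraries was tested over 5000 genes: same-numbered libraries had all correlations of their deviations from the group means over 0.1 in 14 of 39 comparisons (sorted populations: D6, 4 of 6; D4, 4 of 6; D2, 1 of 6; progeny: D4, 3 of 3, D6, 1 of 3; change from D2 to D6, 1 of 4), and in none against D0. Alternatives were DESeq2's Wald test, its size factors in edgeR, no filter, the replicate block, 1 fit of all 57 libraries, and each library left out. The lists and D0 levels without D0 replicate 2 were added after seeing the data.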

Additional observations from a re-analysis of the deposited data

Results flagged for a closer look

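In 4 cases every library of 1 population lay above the other group and every library of another population below it, under the same contrast. These differences were not tested. They were picked by a scan of the 9 genes over the contrasts, and the share of such cases over all genes was not counted. In the single comparisons given above, the libraries of 2 groups did not overlap for 8.5% to 23.2% of all genes. Each value is the difference, on the log2 scale, between the changes of the mean normalized count plus 1 in the 2 populations. For Sall4, D6 exceeded D2 in each library of Sox1-FoxA2+ cells and was under it in each library of Sox1-FoxA2- cells, a difference of 1.68, and neither change was called (adjusted p = 0.500 and 0.504 by edgeR). For Lin28b, D4 exceeded D2 in each library of Sox1-FoxA2- cells (difference 2.02) and of Sox1+FoxA2- cells (2.07), and was under it in each library of Sox1-FoxA2+ cells. For Zic2, D4 progeny exceeded D4 sorted cells in each library of Sox1-FoxA2+ cells (276, 184 and 140 against 119, 78.9 and 12.7) and were under them in each library of Sox1+FoxA2- cells (23.3, 129 and 255 against 784, 1096 and 659), a difference of 4.13.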

How the results depend on the processing

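Of the 375 values tested over the 9 genes and 42 comparisons, 27 were called, 24 of them lower, and 8 of the 27 calls were kept in each alternative and without each library. No call changed sign. The counts of calls moved with the settings. Outside the main fits, the share of all genes called is given only without D0 replicate 2. The other counts, here, above and for each library left out, therefore cannot be read as particular to the 9 genes. DESeq2's Wald test gave 12 from D0 to D2, 2 from D2 to D6, 2 between populations at D2, 7 at D4 and 4 at D6, and 1 between D6 and D4 progeny, and gave no adjusted p for Otx2 from D0 to D2 in Sox1-FoxA2+ cells. Without a filter on low counts they were 21 from D0 to D2, 8 from D2 to D6, 19 from D0 to D6, 2 between populations at D2 and 5 at D6, 5 in D6 progeny, 1 between D6 and D4 progeny, 2 in D4 progeny against sorted cells and 1 for the difference of changes. With all 57 libraries in 1 fit they were 1 from D0 to D2, 6 from D0 to D6, 1 between populations at D6 and 0 at D4, and 1 in D4 progeny. Each call made from D0 to D2 was lost there, and the 1 call was Fgf5 in Sox1+FoxA2+ cells (adjusted p = 0.0222). From D0 to D6 each call of Pou5f1 (0.0881 to 0.260) and that of Utf1 in Sox1+FoxA2- cells (0.214) were lost. The cause was not tested. With the replicate block they were 9 from D0 to D2, 12 from D0 to D6, 2 from D2 to D6, 1 between populations at D2 and 2 at D6. Of these fits only some are paired, and besides Sall4 at D6 the block changed no call in a paired comparison. Sall4 in D6 Sox1-FoxA2+ against Sox1-FoxA2- cells was also called with the block (adjusted p = 0.00532, against 0.250). The lowest correlation of that comparison, 0.0993, lay just under the 0.1 used for pairing. Against D0 and between progeny and sorted cells (3 of 9 correlations over 0.1 at D4 and 0 of 9 at D6) the libraries share only a number, and the block took Fgf5 in D6 progeny against sorted cells from 0.0475 to 0.0934.

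Leaving out each library gave 3 to 9 calls from D0 to D2, 0 to 1 from D2 to D6, 8 to 10 from D0 to D6, 0 to 1 between the sorted populations of each day, 2 to 5 in D6 and 0 to 4 in D4 progeny, 0 to 1 between D6 and D4 progeny, 1 to 1 in D4 and 2 to 4 in D6 progeny against sorted cells, and 0 to 0 for the difference of changes. DESeq2 size factors in place of TMM moved log2 changes by -0.19 to 0.25. Among means of a gene in a condition under another scaling or without a library, 681 stayed within 1 SD and 3 did not. Of the 3 genes most alike each gene by Pearson's r, Spearman's rho shared 0 to 2. Depth limits the genes with low values, for which 0 counts in a library allow up to 3.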
